A study of Mus musculus with 6 samples.

Results

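The mitosis and spindle genes described here are a named list of 49 genes that act between the end of DNA replication and the separation of daughter cells. They were chosen by name, as genes of mitotic entry, mitosis, the kinetochore and condensin, and all 49 were present among the 46959 gene names of the count table. A resting lymphocyte transcribes few of them. In a dividing cell cyclin B and the kinase Cdk1 drive entry into mitosis, condensin and topoisomerase II compact and untangle the chromosomes, and kinesins build a spindle whose microtubules hold chromosomes at the kinetochore. The spindle checkpoint blocks the anaphase-promoting complex until every kinetochore is attached, and the complex then triggers destruction of securin and cyclin B, so that separase opens the cohesin rings and the cell divides. LPS, the bacterial lipopolysaccharide that activates B-cells through Toll-like receptors, makes splenic B-cells divide.

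CD43- splenic B-cells (spleen cells depleted of the cells carrying CD43, which resting B-cells lack) came from wt mice, from Eμ-deficient mice and from 3′RR-deficient mice. Eμ is the enhancer at the 5′ end of the immunoglobulin heavy chain constant genes, deleted in the germline together with its matrix attachment regions, and the 3′RR is the super-enhancer at their 3′ end, also deleted in the germline. Per the study's methods, all mice were of a 129 background, young adults of both sexes. Each genotype gave 1 library of non stimulated cells, called resting here, and 1 library of cells grown for 2 days with LPS at 5 μg per ml in the study's methods, 6 libraries in all. By the labels the resting cells spent the same 2 days in medium alone, by the methods they were taken before stimulation, and the description of the extraction writes the LPS dose in mg. By the labels each library pooled 2 mice. The study's methods describe 2 pooled RNAs per genotype, each from 2 samples, and a figure legend gives another number of mice. In the data used here no group had a second library, so that a difference between genotypes cannot be told apart from a difference between pools or cultures. The question put to these data was how the mitotic genes moved from resting to LPS-stimulated B-cells in each genotype.

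Gene counts per library ran from 9111889 in the LPS-stimulated 3′RR-deficient cells to 21997928 in the LPS-stimulated wt cells. B-cell markers (Cd79a, Cd79b, Ms4a1, Cd22 and Pax5) summed to 1390 to 2400 CPM (gene counts brought to a common library size with TMM, the trimmed mean of M values). They were thus high in every library, though in resting cells lower in Eμ-deficient (1550 CPM) than in wt (2180) and 3′RR-deficient cells (2400). Haemoglobin and other erythroid genes summed to 20400 CPM in resting Eμ-deficient cells against 3380 and 3910 CPM in resting wt and 3′RR-deficient cells, and to 53 to 673 CPM after LPS, so that the resting Eμ-deficient library stood apart. The LPS-stimulated 3′RR-deficient and wt libraries stood apart as well. Between them the ratio of a gene moved with the GC content of the transcript, and the added spike-in RNAs, which should hold 1 ratio, spread around their ratio with an SD of 1.27 on the log2 scale, against 0.16 to 0.48 in the other 3 comparisons with wt. Set against the resting library of the same genotype, the spike-in SD was 0.784 in wt, 0.633 in 3′RR-deficient and 0.135 in Eμ-deficient cells. From the lowest to the highest class of GC content the median log2 ratio of LPS to resting over all genes ran from 0.46 to -0.67 in wt, from -0.55 to 0.11 in 3′RR-deficient and from -0.2 to 0.04 in Eμ-deficient cells. Transcripts of the 49 members had a median GC content of 46.3% (34.8% to 56.1%), against 49% over all genes tested. In these bulk samples fewer dividing cells and less mitotic RNA per cell cannot be told apart.

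LPS-stimulated B-cells carried far more mitotic RNA than resting B-cells in all 3 genotypes. Summed over the 49 members, resting levels were 471 CPM in wt, 743 CPM in Eμ-deficient and 732 CPM in 3′RR-deficient cells, and LPS levels were 4300, 3810 and 4120 CPM. Of the 49 members 46 rose with LPS and none fell in the edgeR quasi-likelihood test with genotype as a block (adjusted p under 0.05 after Benjamini-Hochberg adjustment), while 19.7% of all 14599 genes tested were called higher and 21.1% lower. Under spike-in scaling the calls over all genes were 1455 higher and 2901 lower, in place of 2882 and 3079, and the members' calls were again 46 and 0. The median log2 fold change of the members was 3.28, against -0.07 for all genes tested. In the same 46 members every LPS library lay above every resting library, an order that 25% of all genes tested showed. The exceptions on both counts were Cdc25b, Pttg1 and Cenpa. The test measures how far the 3 genotypes depart from a shared LPS response, not the spread between mice.

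**Figure D1:**
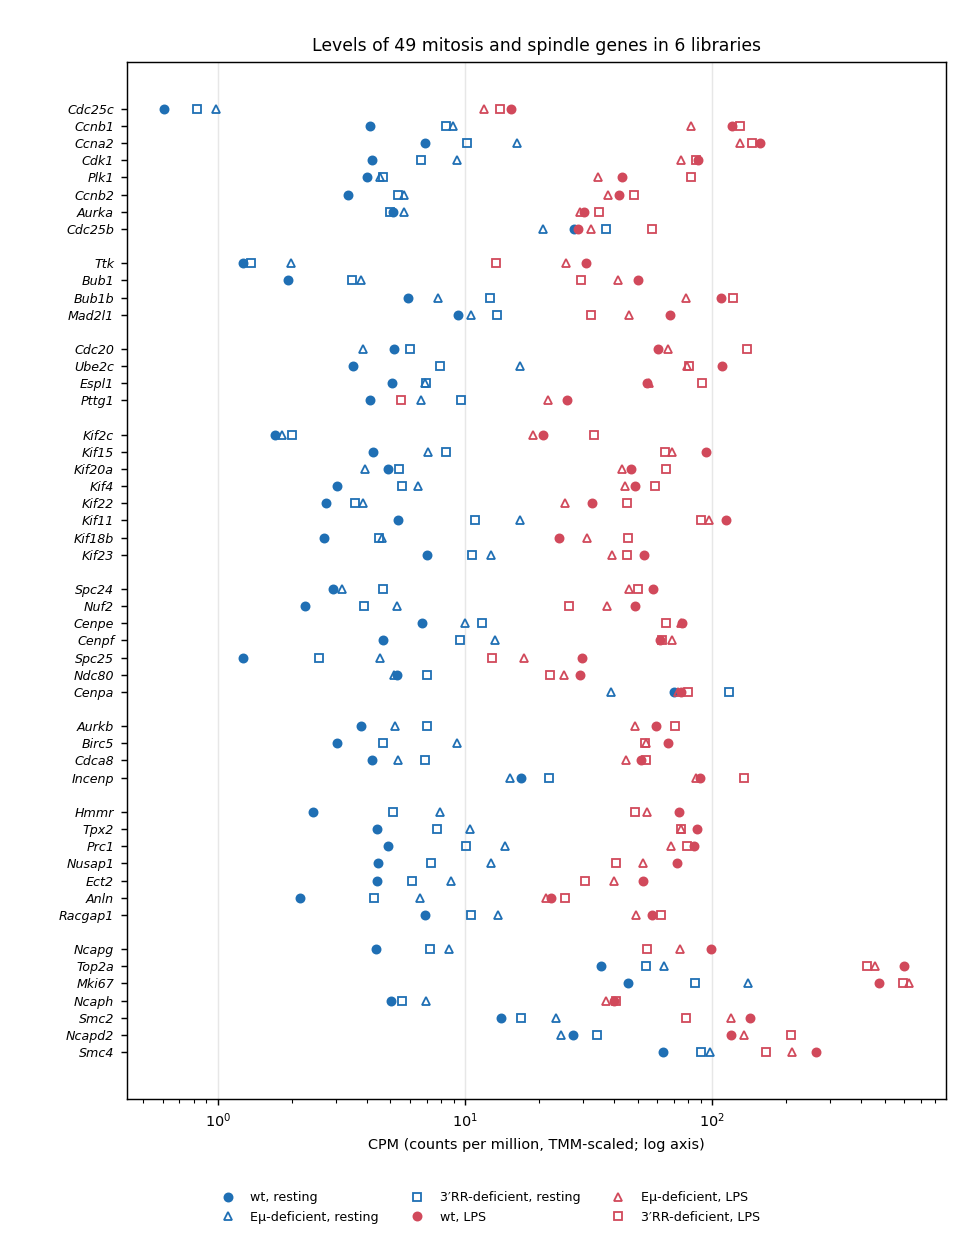
Level of each of the 49 members in each of the 6 libraries, in CPM on a log axis, grouped by role and ordered within a role by the LPS effect. Blue symbols stand for resting and red symbols for LPS-stimulated libraries, 1 symbol a library, with no error bars since each group holds 1 library. Red lies to the right of blue in 46 rows, and the colours mix in the rows of Cdc25b, Pttg1 and Cenpa.

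**Figure D2:**
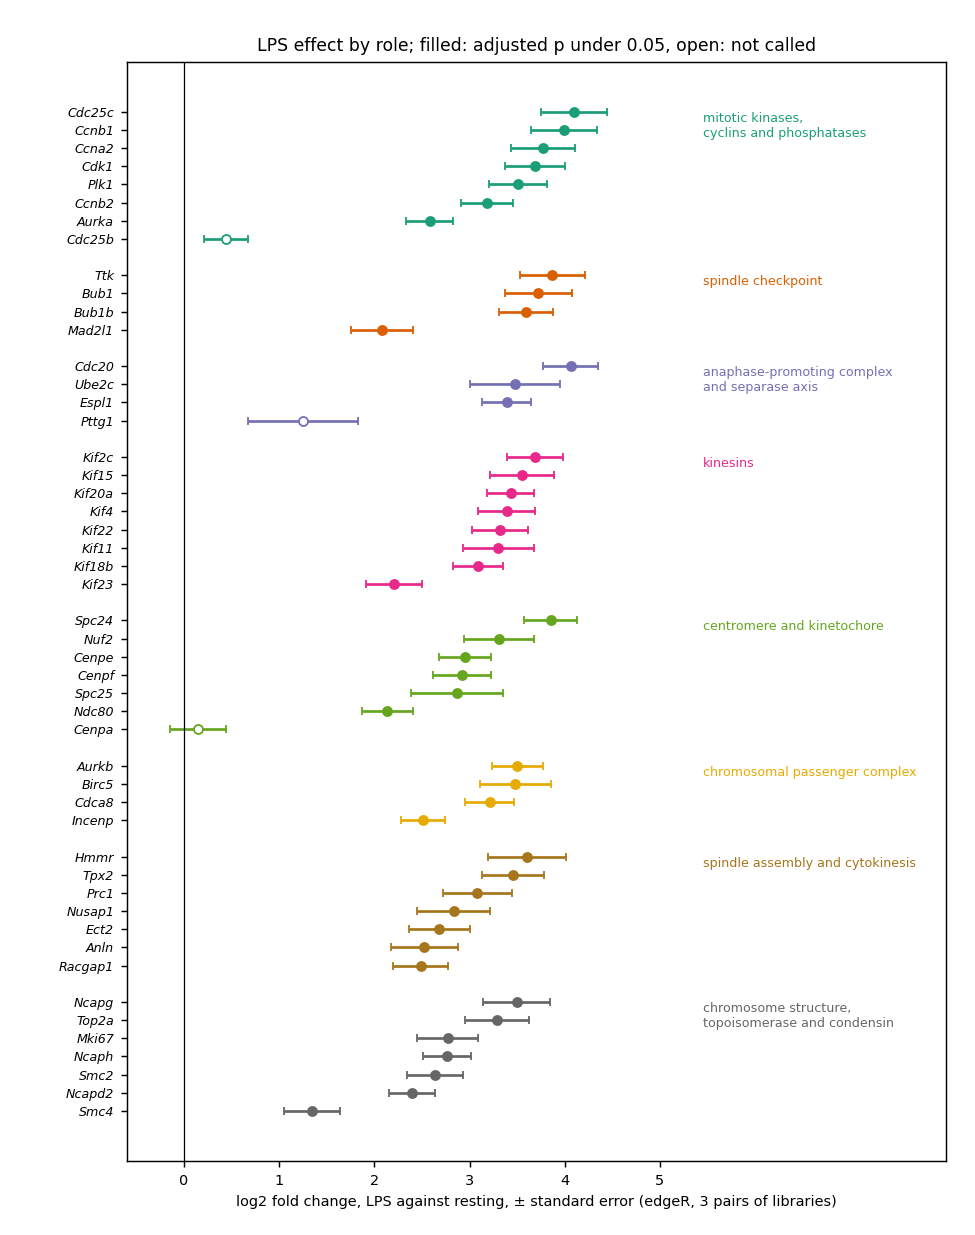
Log2 fold change of each member from resting to LPS-stimulated cells with its standard error, from edgeR over 3 pairs of libraries, 1 pair a genotype. The 46 filled points passed the test and lie between 1.34 (Smc4) and 4.10 (Cdc25c), and the 3 open points did not.

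Since nearly all members moved together, their promoters were read. Genes of this kind are known to carry CCAAT boxes, which the trimeric factor NF-Y binds, and a cell cycle homology element with the letters TTTGAA, which the DREAM complex of resting cells and the B-Myb and FoxM1 complexes of dividing cells bind through MuvB. RefSeq windows of 300 bases (250 before and 50 after the transcription start, GRCm38.p6) matched 41 of the 49 members. The members with no window were Ccna2, Cdc25c, Kif20a, Spc24, Aurkb, Incenp, Tpx2 and Smc4. Counted on either strand, CCAAT stood in 31 of the 41 windows (75.6%), against 39.2% of the windows of 9441 genes tested, and at least 2 copies stood in 48.8% against 15.4%. TTTGAA also stood in 31 windows (75.6%), against 12.1% of the genes tested and 18.1% of all 27025 genes with a window. Both stood in 27 windows (65.9%), against 5.12% of the genes tested.

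The position of the TTTGAA matches was narrow. In 28 members (68.3%) a match began within 50 bases of the RefSeq start, which held for 3.05% of the genes tested. Among the 28 are Cdca8, Kif4 and Cenpa. Their RefSeq starts lie 2394, 328 and 109 bases from the 5′ end of the gene in the GENCODE annotation. For comparison, windows of 35 DNA replication genes, which work one step earlier in the cell cycle, held CCAAT in 62.9% and TTTGAA in 11.4%. The E2F letters TTCCCGC or TTGGCGC stood in 19.5% of the member windows, in 54.3% of the replication windows and in 12.8% of the genes tested. In the member windows there were 69 CCAAT, 40 TTTGAA and 8 E2F matches, and 1 TTTGAA match and 2 E2F matches overlapped a CCAAT match. These are matches of letters and not measured binding.

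Of these windows 8 are shown to compare promoters of strongly responding members with those of members that did not pass the test, 5′ to 3′, with CCAAT and TTTGAA matches on either strand in capitals (read on the opposite strand as ATTGG and TTCAAA). Each stretch runs from 150 bases before the RefSeq start to at most 30 bases after it, cut shorter where the GENCODE gene begins further upstream. Cdk1 (the kinase of mitotic entry), Ccnb2 (a cyclin B), Cdc20 (activator of the anaphase-promoting complex), Ube2c (its ubiquitin-conjugating enzyme), Top2a (topoisomerase II) and Mki67 (the proliferation antigen Ki-67) rose with LPS. Cenpa (the centromeric histone H3 variant) and Cdc25b (a phosphatase that activates Cdk1) did not pass.
Cdk1, chr10:69352909-69353062, minus strand: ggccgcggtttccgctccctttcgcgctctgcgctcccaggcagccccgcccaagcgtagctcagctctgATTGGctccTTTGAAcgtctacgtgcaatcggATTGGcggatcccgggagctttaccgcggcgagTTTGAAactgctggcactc
Ccnb2, chr9:70421525-70421704, minus strand: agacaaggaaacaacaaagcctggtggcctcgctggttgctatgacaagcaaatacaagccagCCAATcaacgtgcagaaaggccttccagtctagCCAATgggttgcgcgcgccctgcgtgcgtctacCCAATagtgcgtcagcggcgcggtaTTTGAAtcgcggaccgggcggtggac
Cdc20, chr4:118437323-118437493, minus strand: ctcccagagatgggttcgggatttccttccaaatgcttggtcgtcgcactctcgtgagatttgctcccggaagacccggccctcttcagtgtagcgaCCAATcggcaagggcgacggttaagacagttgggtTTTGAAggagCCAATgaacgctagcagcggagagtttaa
Ube2c, chr2:164769779-164769927, plus strand: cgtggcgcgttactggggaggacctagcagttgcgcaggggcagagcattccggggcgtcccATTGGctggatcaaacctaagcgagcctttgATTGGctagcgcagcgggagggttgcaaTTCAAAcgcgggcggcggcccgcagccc
Top2a, chr11:99024160-99024339, minus strand: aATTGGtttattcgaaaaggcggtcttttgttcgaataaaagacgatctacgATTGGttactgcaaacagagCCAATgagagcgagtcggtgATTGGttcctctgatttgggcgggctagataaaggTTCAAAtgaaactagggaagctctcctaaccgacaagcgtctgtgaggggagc
Mki67, chr7:135716350-135716529, minus strand: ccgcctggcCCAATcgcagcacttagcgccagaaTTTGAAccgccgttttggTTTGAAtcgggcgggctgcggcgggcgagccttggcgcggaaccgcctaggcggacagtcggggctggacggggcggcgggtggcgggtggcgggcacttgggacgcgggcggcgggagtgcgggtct
Cenpa, chr5:30666736-30666806, plus strand: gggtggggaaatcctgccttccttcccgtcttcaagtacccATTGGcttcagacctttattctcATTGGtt
Cdc25b, chr2:131186798-131186977, plus strand: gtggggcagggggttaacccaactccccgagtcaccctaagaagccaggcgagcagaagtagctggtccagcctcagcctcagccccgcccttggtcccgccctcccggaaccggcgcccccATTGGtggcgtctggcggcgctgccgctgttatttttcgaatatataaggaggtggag
In the stretches shown, Top2a carried 4 CCAAT matches, Ccnb2 carried 3, and Cdk1, Cdc20 and Ube2c carried 2 each, every one of these with a TTTGAA match near the start. Mki67 differed, with 1 CCAAT match in its stretch and TTTGAA matches farther out, at -116 and -98. Cenpa carried 2 CCAAT matches in its stretch and 1 TTTGAA match 17 bases after the RefSeq start, which the shortened stretch leaves out. Cdc25b held 1 CCAAT and no TTTGAA match. For Pttg1 neither stood in the window, but the RefSeq start of that window lies 270 bases inside the GENCODE gene, and the window with it. Members called higher also lacked both: Mad2l1, Nuf2, Birc5, Nusap1 and Ncaph had no match of either kind. The RefSeq start of Mad2l1 lies 169 bases from the GENCODE 5′ end.

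**Figure D3:**
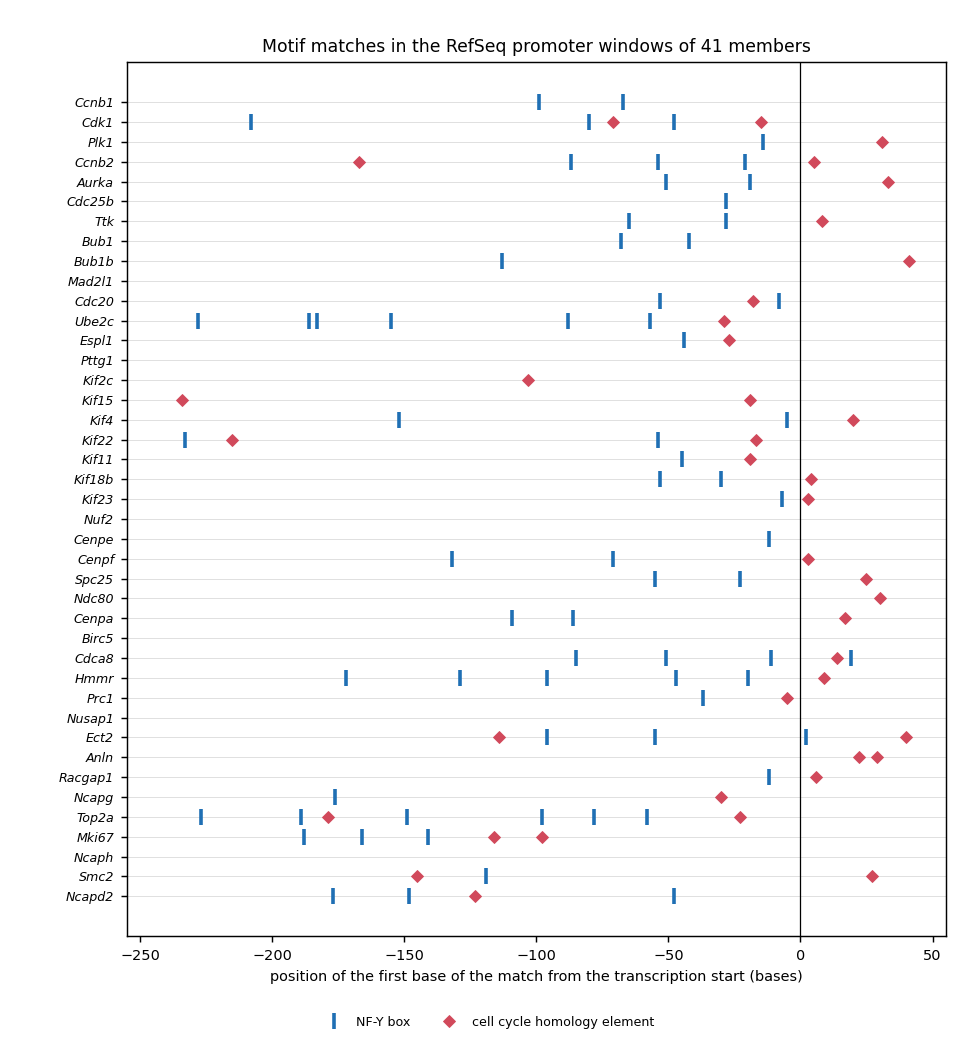
Position of each motif match in the promoter windows of 41 members, in bases from the RefSeq transcription start (black line). Blue ticks stand for matches of the NF-Y box and red diamonds for the cell cycle homology element, and 28 of the members have a diamond within 50 bases of the line.

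Among the mitotic kinases, cyclins and phosphatases 7 of 8 members rose, with a median log2 fold change of 3.60. In what follows, levels are CPM in wt, Eμ-deficient and 3′RR-deficient cells, in that order, and fold changes are log2 with their standard errors. Cdc25c, the phosphatase that finally switches Cdk1 on, went from 0.606, 0.985 and 0.827 CPM in resting cells to 15.3, 11.9 and 13.9 CPM with LPS (4.10 ± 0.35, adjusted p = 9.59e-05), the largest change of the list. Ccnb1, which encodes cyclin B1, went from 4.13, 8.94 and 8.37 CPM to 120, 82.3 and 130 CPM (3.99 ± 0.35). Cdk1 itself stood at 4.19, 9.32 and 6.67 CPM before and at 87.8, 74.9 and 86.4 CPM after LPS (3.69 ± 0.32). All 3 genotypes took part, and in each of these genes the lowest resting library was wt.

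Ccna2, cyclin A2 of late DNA replication and early mitosis, was among the highest members per length: 52.8 CPM per kb in LPS-stimulated wt cells, where Top2a had 115 and Anln, the lowest, 4.83 CPM per kb. In CPM it went from 6.89, 16.2 and 10.2 to 157, 130 and 145 (3.77 ± 0.33). Plk1, the polo kinase of spindle and centrosome maturation, was at 4.02, 4.55 and 4.67 CPM in resting cells and at 43.3, 34.5 and 82.4 CPM after LPS (3.51 ± 0.30), highest in the 3′RR-deficient library. Aurka, the Aurora kinase of the spindle poles, went from 5.12, 5.68 and 4.96 to 30.4, 29.1 and 35 CPM (2.58 ± 0.25), with nearly even levels in the 3 genotypes in both states.

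Cdc25b was the exception of this group. Its levels of 27.7, 20.8 and 37.2 CPM in resting cells and 28.8, 32.5 and 57.3 CPM in LPS-stimulated cells overlapped, with a log2 fold change of 0.44 ± 0.23 (adjusted p = 0.158, edgeR). Per length, resting cells held more of it than of any other gene of this group, with 8.95, 6.72 and 12 CPM per kb. Without the wt pair it passed the test, at 0.66 (adjusted p = 0.0122).

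All 4 spindle checkpoint genes rose (median 3.66). Ttk, the Mps1 kinase that starts checkpoint signalling, went from 1.27, 1.97 and 1.36 CPM to 31, 25.7 and 13.4 CPM (3.87 ± 0.34). Bub1, a kinase of the unattached kinetochore, went from 1.93, 3.79 and 3.5 to 50.4, 41.7 and 29.5 CPM (3.72 ± 0.35). Mad2l1, the Mad2 protein that captures Cdc20, had the smallest rise of the group, from 9.37, 10.6 and 13.5 to 67.9, 46 and 32.3 CPM (2.08 ± 0.32, adjusted p = 0.00124). In these 3 genes the LPS levels ran wt, Eμ-deficient, 3′RR-deficient from high to low. The remaining checkpoint gene, Bub1b, did not share this order, with LPS levels of 109, 78.4 and 122 CPM, highest in the 3′RR-deficient library.

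In the axis of the anaphase-promoting complex and separase 3 of 4 members rose (median 3.43). Cdc20 went from 5.18, 3.86 and 5.98 CPM to 60.5, 66.6 and 138 CPM (4.06 ± 0.29), with the highest LPS level in the 3′RR-deficient library. Ube2c went from 3.53, 16.7 and 7.93 to 110, 79.2 and 80.6 CPM (3.47 ± 0.47). The Ube2c resting level was thus lowest and the LPS level highest in wt. Pttg1, the securin that holds separase inactive, did not pass: it stood at 4.13, 6.67 and 9.68 CPM in resting cells and at 25.8, 21.6 and 5.51 CPM after LPS (1.25 ± 0.58, adjusted p = 0.114, edgeR). Its level was higher with LPS in wt and Eμ-deficient cells and lower in 3′RR-deficient cells. Without the 3′RR-deficient pair the Pttg1 change was 2.15 with an adjusted p of 0.000262.

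The 8 kinesins all rose (median 3.36). The largest change was that of Kif2c, a microtubule-depolymerising kinesin that corrects faulty attachments, from 1.71, 1.82 and 1.99 CPM to 20.7, 18.9 and 33.4 CPM (3.69 ± 0.29). Kif11, the Eg5 motor that pushes the spindle poles apart, went from 5.34, 16.7 and 11 to 114, 96.9 and 89.9 CPM (3.30 ± 0.37). Kif23, a motor of the central spindle, changed least, from 7.05, 12.7 and 10.7 to 53, 39.3 and 45.3 CPM (2.21 ± 0.29). For Kif11 and Kif23 wt was the lowest resting and the highest LPS library.

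At the centromere and kinetochore 6 of 7 members rose (median 2.92). Spc24 and Spc25 form the chromosome-facing end of the Ndc80 complex and Ndc80 and Nuf2 its microtubule-facing end. Spc24 went from 2.92, 3.18 and 4.67 CPM to 57.8, 46.1 and 50.1 CPM (3.85 ± 0.28). Spc25 went from 1.27, 4.55 and 2.58 to 29.9, 17.3 and 12.9 CPM (2.87 ± 0.49). Both were lowest in resting wt cells and highest in LPS-stimulated wt cells. Ndc80 went from 5.29, 5.15 and 7.01 to 29.1, 25.3 and 22.2 CPM (2.14 ± 0.27). Nuf2 went from 2.26, 5.3 and 3.89 to 48.6, 37.7 and 26.5 CPM (3.31 ± 0.37). In all 4 subunits the highest LPS library was wt.

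Cenpe, the kinetochore motor, went from 6.72, 10 and 11.7 to 75.9, 74.8 and 65.2 CPM (2.95 ± 0.27). Cenpf, a large kinetochore protein, went from 4.68, 13.3 and 9.54 to 61.5, 68.9 and 62.8 CPM (2.92 ± 0.31). The LPS levels of both differed little between genotypes. Cenpa showed no such change, at 70.1, 38.9 and 117 CPM in resting cells and 75.2, 72.8 and 79.7 CPM after LPS (0.15 ± 0.30, adjusted p = 0.714, edgeR). Its LPS levels were close to each other while its resting levels spread, with 3′RR-deficient above and Eμ-deficient below every LPS library. Its direction is not fixed by these data: the change was -0.07 under spike-in scaling and -0.13 without the Eμ-deficient pair. Part of the Cenpa transcript matches other genes at 95% identity or more over 150 or more nucleotides, as do parts of 7 other members, among them Ccnb1 and Mad2l1 through processed pseudogenes, and multi-mapping reads were counted.

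Of the chromosomal passenger complex, which corrects attachments and directs cytokinesis, all 4 genes rose (median 3.35). Its kinase Aurkb went from 3.8, 5.23 and 7.05 to 59.3, 48.7 and 71.1 CPM (3.5 ± 0.27). Birc5, the subunit survivin, went from 3.03, 9.32 and 4.67 to 66.4, 54.1 and 53.5 CPM (3.48 ± 0.37). The scaffold Incenp, already at 16.9, 15.2 and 21.8 CPM in resting cells, reached 89.8, 86.3 and 135 CPM (2.51 ± 0.23). For Aurkb and Incenp the highest library in either state was 3′RR-deficient.

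The 7 genes of spindle assembly and cytokinesis rose as well (median 2.83). Hmmr, a spindle-pole protein, went from 2.42, 7.96 and 5.11 to 73.5, 54.4 and 48.9 CPM (3.60 ± 0.41). Tpx2, which activates Aurora A on the spindle, went from 4.41, 10.5 and 7.69 to 87.1, 74.7 and 75.2 CPM (3.46 ± 0.33). Anln, the anillin of the cleavage furrow, went from 2.15, 6.59 and 4.28 to 22.3, 21.3 and 25.5 CPM (2.53 ± 0.35). In all 3 the resting levels ran wt, 3′RR-deficient, Eμ-deficient from low to high. Racgap1, the partner of Kif23 in the central spindle, changed least of the group, from 6.89, 13.6 and 10.6 to 57, 49.3 and 62.1 CPM (2.48 ± 0.28).

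Of chromosome structure and condensin all 7 genes rose (median 2.77). Mki67, whose protein coats mitotic chromosomes, stood at 45.9, 140 and 85.7 CPM in resting cells and 475, 624 and 594 CPM after LPS (2.77 ± 0.32). Top2a went from 35.7, 63.7 and 54.2 to 601, 455 and 422 CPM (3.28 ± 0.34). After LPS wt was thus the lowest of the 3 for Mki67 and the highest for Top2a.

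Ncapg, a condensin I subunit, rose most in this group, from 4.35, 8.64 and 7.25 to 99.2, 74.5 and 54.7 CPM (3.49 ± 0.35). The condensin subunit Smc2 went from 14, 23.3 and 16.8 to 143, 119 and 78.2 CPM (2.64 ± 0.29). Ncapd2, another subunit, went from 27.5, 24.4 and 34.2 to 119, 135 and 209 CPM (2.4 ± 0.24). After LPS the 3′RR-deficient library was thus the lowest for Ncapg and Smc2 and the highest for Ncapd2. Smc4, the partner of Smc2, rose least of the 46, from 63.1, 97.9 and 90.1 to 264, 210 and 166 CPM (1.34 ± 0.30, adjusted p = 0.00671). Per length Smc4 had a high resting level, with 14.6 CPM per kb in wt against 18.4 for Cenpa and 6.84 for Top2a.

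Genes of the same machinery outside the list moved in part with it. Other kinetochore and centromere genes rose in 26 of 31 cases (none lower, median 2.27), from Cenpm at 4.42 down to Cenpq at -0.14 (adjusted p = 0.717, edgeR), and Cenpo, Zw10, Cenpc1 and Cenpt did not pass either. Other checkpoint and mitotic entry genes rose in 14 of 18 (median 2.15), led by the Cdk subunit Cks1b at 3.63, with Ensa, Mad2l1bp, Mad1l1 and Pkmyt1 not passing. Centriole and spindle pole genes rose in 24 of 27 (median 2.26), with Ckap2l highest at 3.49 and Kif2a, Cep152 and Cenpj not passing.

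Groups that also work outside mitosis had smaller medians. Of 17 subunits and regulators of the anaphase-promoting complex 8 rose (median 0.74), highest in the inhibitor Fbxo5 at 2.42 and lowest in the subunit Anapc2 at -0.23 (not passing). Of 15 cohesin genes and regulators 7 rose and 2 fell (median 0.38). The cohesin protector Sgol1 was highest at 3.44, while the acetyltransferase Esco1 fell by 1.04 and the loader subunit Mau2 by 0.89. All 3 condensin II genes rose, by 0.84 in Ncaph2 to 3.09 in Ncapg2. Of 13 DREAM, MuvB, B-Myb and FoxM1 genes 6 rose and 1 fell: Mybl2, which encodes B-Myb, had 3.51, and the E2F partner Tfdp2 fell by 1.51. The 43 DNA replication genes rose in 41 cases with a median of 2.25, lower than the 3.28 of the 49 members.

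In the fit over both states no member was called between a mutant and wt. In 3′RR-deficient cells 0 of 49 were called higher or lower than in wt in edgeR, while 0.171% of all genes were called higher and 0.507% lower. At an unadjusted p under 0.05 there were 3 higher in the mutant (Kif18b, Cdc25b and Cdc20) and 0 lower. Over all 14599 genes tested 427 were higher and 404 lower at that threshold. DESeq2 called 0 members. In Eμ-deficient cells edgeR again called 0 members against wt, with 0.911% of all genes higher in the mutant and 0.253% lower. At an unadjusted p under 0.05, 1 member (Mki67, 1.00 ± 0.37) was higher and 0 were lower. Over all 14599 genes tested 985 were higher and 281 lower at that threshold. DESeq2 again called 0 members. The member medians were 0.22 for 3′RR-deficient and 0.18 for Eμ-deficient against wt. Each fit sets 2 libraries against 2, and the states went different ways.

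In resting cells most members were higher in both mutants than in wt. These ratios set 1 library against 1, so that no test is possible and the 95% intervals (exact conditional binomial) cover counting error only. In 3′RR-deficient cells the log2 ratio to wt was above 0 in 48 of 49 members and in 51.8% of all genes. The member median was 0.67, against 0.01 for all genes tested and 0.17 for the DNA replication genes. The interval lay above 0 in 40 members and below 0 in none. For all genes the share of such intervals was not counted, here or in the other comparisons with wt. By the count of 48 of 49, ratios above 0 were spread over nearly the whole list. Past 2-fold, 9 of the 49 members were higher and none lower, where 5.38% of all genes were over 2-fold higher and 3.95% over 2-fold lower. The highest ratio was that of Pttg1, at 1.23 (0.84 to 1.63), and the only negative one that of Aurka, at -0.05 (-0.47 to 0.38).

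In resting Eμ-deficient cells the ratio was above 0 in 42 members and in 52.2% of all genes. The member median was 0.75, against 0.03 for all genes and -0.13 for the replication genes. The interval lay above 0 in 32 members and below 0 in 2, Cenpa and Cdc25b. These 2 were also members with no called LPS effect. Past 2-fold, 16 members were higher and none lower, where 12.6% of all genes were higher and 5.62% lower. Ube2c had the highest ratio, 2.25 (1.84 to 2.67), and Cenpa the lowest, -0.85 (-1.0 to -0.70). By role, the resting excess of Eμ-deficient cells was largest for spindle assembly and cytokinesis (median 1.5) and smallest for the chromosomal passenger complex (0.41). Wt was the lowest of the 3 resting libraries in 41 of 49 members, an order shown by 35.7% of all genes, and both ratios share that 1 wt library. Under spike-in scaling the resting Eμ-deficient medians moved to -0.78 for all genes and -0.07 for the members. A change of scaling shifts all ratios of 2 libraries by the same amount. The members thus stay 0.71 above all genes by construction.

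The level of other cells moved with part of this. In resting Eμ-deficient cells all 8 erythroid markers were higher than in wt, and plasma cell markers summed to 1870 CPM against 174 in wt and 227 in 3′RR-deficient cells. There Jchain alone gave 1740 CPM. Myeloid markers summed to 361 CPM against 149 in wt and 150 in 3′RR-deficient cells, T-cell markers to 40 against 17.7 and 21, NK-cell markers to 3.33 against 3.64 and 3.99, and no marker of these lists was at 0 in a resting library. Germinal centre B-cell markers summed to 41 CPM in wt, 25.6 in Eμ-deficient and 49.5 in 3′RR-deficient cells. In resting 3′RR-deficient cells, then, summed erythroid, plasma cell and myeloid levels were within 1.5 times those of wt while the member median was 0.67. The part of other cells in the resting ratios was not tested.

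After LPS neither mutant had a median above wt under TMM scaling. In 3′RR-deficient cells the median ratio to wt was -0.09, against 0.11 for all genes. The ratio was above 0 in 23 members and in 54.9% of all genes. Intervals lay above 0 in 17 members and below 0 in 23. The members were spread to both sides of wt. Over 2-fold higher was 1 member, Cdc20 at 1.19 (1.08 to 1.31), where 15.9% of all genes were, and over 2-fold lower were 4, where 10.7% of all genes were. These 4 were Pttg1 at -2.23 (-2.68 to -1.80), Ttk at -1.21, Spc25 at -1.21 and Mad2l1 at -1.07. Across the 49 members the ratio followed the GC content of the transcript (Pearson's r = 0.73, Spearman's rho = 0.82, a description over genes of the same 2 libraries), and all genes did the same.

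With the trend of all genes at the same GC content taken off, the median of the members in LPS-stimulated 3′RR-deficient cells was -0.01. The resting medians were then 0.59 for 3′RR-deficient and 0.57 for Eμ-deficient cells. Pttg1 then kept -2.11, Ttk -0.76 and Spc25 -0.71, while Mad2l1 came to -0.34 and Cdc20 to 0.54. Smc2, at -0.87 before, came to -0.09. Under spike-in scaling the medians were 0.66 for all genes and 0.46 for the members. Their difference of -0.2 is the same under any scaling by construction.

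**Figure D4:**
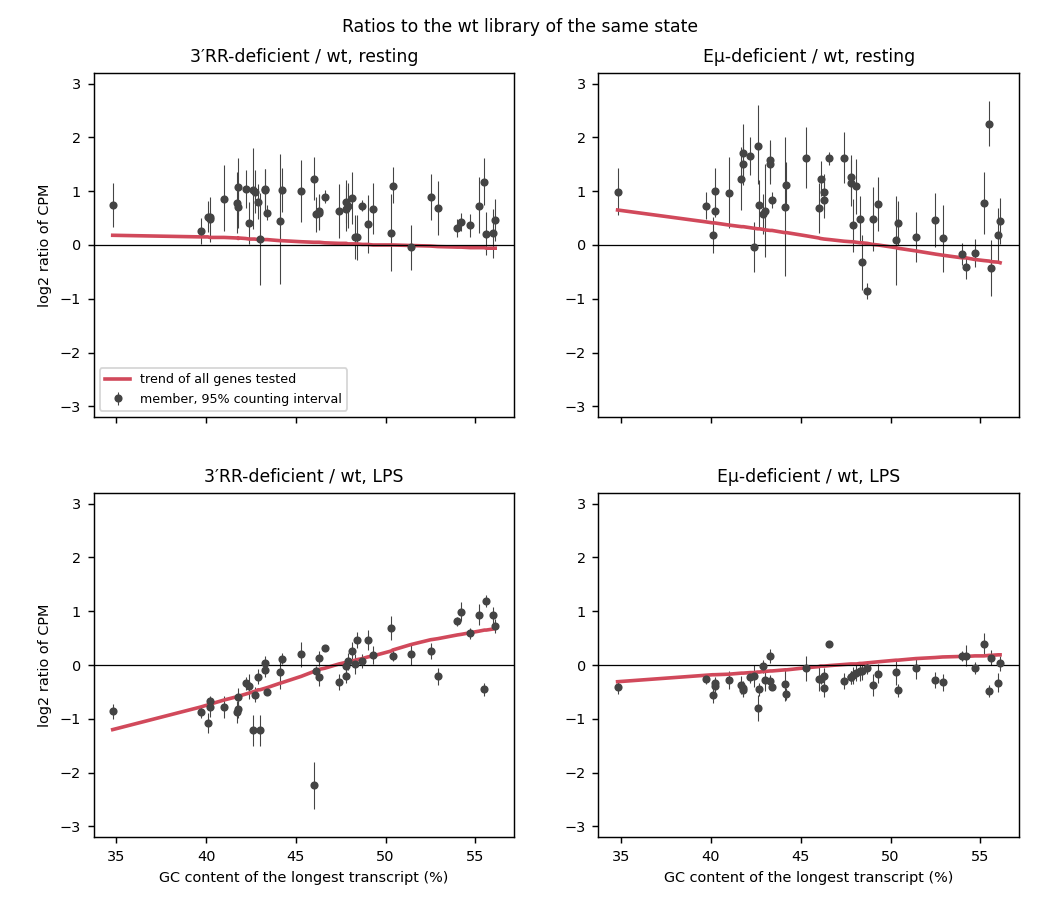
Log2 ratio of each mutant to wt in each state for the 49 members, plotted against the GC content of the transcript in percent. Points are members with 95% counting intervals (1 library against 1), and the red line is the trend of all genes tested. Members lie mostly above the line in both resting panels and along a steep line in the LPS panel of 3′RR-deficient cells, where Pttg1 is far below it at -2.23.

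In LPS-stimulated Eμ-deficient cells the median ratio to wt was -0.26, against 0.03 for all genes and -0.33 for the replication genes. The ratio was above 0 in 7 members and in 52.1% of all genes. Member intervals lay above 0 in 5 and below 0 in 31. No member passed 2-fold either way, where 9.12% of all genes were over 2-fold higher and 3.39% lower. Mki67 was highest at 0.39 (0.35 to 0.44) and Spc25 lowest at -0.79 (-1.04 to -0.55). Wt was the highest of the 3 LPS libraries in 26 of 49 members and in 31.7% of all genes.

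With lower resting and, in many members, higher LPS levels, wt had the larger response under TMM scaling. The median log2 ratio of LPS to resting was 3.62 in wt, 2.73 in Eμ-deficient and 2.97 in 3′RR-deficient cells. Under spike-in scaling this order turned, with 2.82 in wt, 2.9 in Eμ-deficient and 2.97 in 3′RR-deficient cells, around medians of -0.87, 0.17 and -0.09 for all genes. For the DNA replication genes the medians under TMM scaling were 2.33, 2.08 and 2.36, in the same order of genotypes. Also under TMM scaling, the wt response was the largest of the 3 in 37 of 49 members, against 37.4% of all genes tested. It was above that of Eμ-deficient cells in 43 and above that of 3′RR-deficient cells in 38 members. Over all 14599 genes tested these counts were 7123 and 6906. The wt response of Cdc20 was below both, at 3.54 against 4.11 and 4.53.

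The difference in response itself was tested as an interaction, the wt pair against both mutant pairs, with 1 residual degree of freedom. Of 49 members 13 had a larger LPS response in wt and 0 a smaller one (edgeR quasi-likelihood test, adjusted p under 0.05), where 2.53% of all genes were called larger and 2.98% smaller. At an unadjusted p under 0.05, 30 were larger and 1, Cdc20, was smaller, against 1470 and 1729 of the 14599 genes tested. The member median was 1.03, against -0.03 for all genes and 0.20 for the replication genes, of which 3 of 43 were called larger. By role, the calls were 4 of 7 genes of spindle assembly and cytokinesis, 2 of 4 of the anaphase-promoting complex axis, 2 of 7 of the kinetochore, 2 of 8 kinesins, 1 each of the checkpoint, the passenger complex and condensin, and 0 of 8 mitotic kinases, cyclins and phosphatases.

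In the same comparison the medians of markers of other cells lay below 0, with few calls. The median difference of log2 responses was -2.20 for 6 T-cell markers, with 0 called, -1.13 for 6 myeloid markers, with 1 called smaller, and -1.77 for 8 erythroid markers, with 1 called smaller. After LPS erythroid markers summed to 53 CPM in wt, 673 in Eμ-deficient and 135 in 3′RR-deficient cells, myeloid markers to 21.3, 33.2 and 28.2 CPM, and T-cell markers to 0.957, 8.25 and 3.82 CPM. In LPS-stimulated wt cells 3 erythroid, 2 T-cell and 1 myeloid marker were at 0. The part of these cells in the differences of response was not tested.

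Spc25 had the largest difference of log2 responses, 2.44 ± 0.51 (adjusted p = 0.00763), from ratios of 4.56 in wt, 1.93 in Eμ-deficient and 2.33 in 3′RR-deficient cells. Ube2c followed with 2.18 ± 0.43 (adjusted p = 0.0051), from 4.97, 2.24 and 3.35. Pttg1 had 2.14 ± 0.62 (adjusted p = 0.0443), from 2.64, 1.69 and -0.81. In Spc25 and Ube2c both mutants fell well short of wt, while in Pttg1 the 3′RR-deficient pair went the other way.

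Hmmr had 1.90 ± 0.41 and Nusap1, a microtubule-bundling protein, 1.75 ± 0.38. Kif11 had 1.63 ± 0.38 and Nuf2 1.62 ± 0.42. In every one of these the mutants' resting level was above and the LPS level below that of wt. For Nusap1 the levels were 4.46, 12.7 and 7.3 CPM in resting cells and 72.4, 52.8 and 40.9 CPM after LPS.

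The other 6 had smaller differences of log2 responses (adjusted p from 0.0212 to 0.0496). Ncapg had 1.5 ± 0.38. Prc1, which bundles microtubules of the central spindle, had 1.5 ± 0.39, with 4.9, 14.6 and 10.1 CPM before and 84.4, 68.5 and 79.3 CPM after LPS. Kif15, a second motor of pole separation, had 1.37 ± 0.38, with 4.24, 7.12 and 8.42 CPM before and 94.5, 69.2 and 64.6 CPM after LPS. Here too wt was lowest at rest and highest after LPS. Bub1 had 1.44 ± 0.44 and Birc5 1.43 ± 0.43. Ect2, the exchange factor that starts furrow ingression, had 1.32 ± 0.39, with 4.41, 8.79 and 6.13 CPM before and 52.4, 40 and 30.7 CPM after LPS.

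These 13 calls were not stable. With a filter of at least 50 counts in 3 libraries 1 was left (Spc25), DESeq2 called 2 (30 of the 49 members had no adjusted p there), and with the GC trend removed 0 of the members and 0 of all genes passed, though the difference stayed positive in 44 of 49 members with a median of 0.74. Under spike-in scaling all genes had a median of -0.90 and 60 were called larger and 4039 smaller, in place of 370 and 435, while 2 members were called larger and 4 smaller around a median of 0.16.

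**Figure D5:**
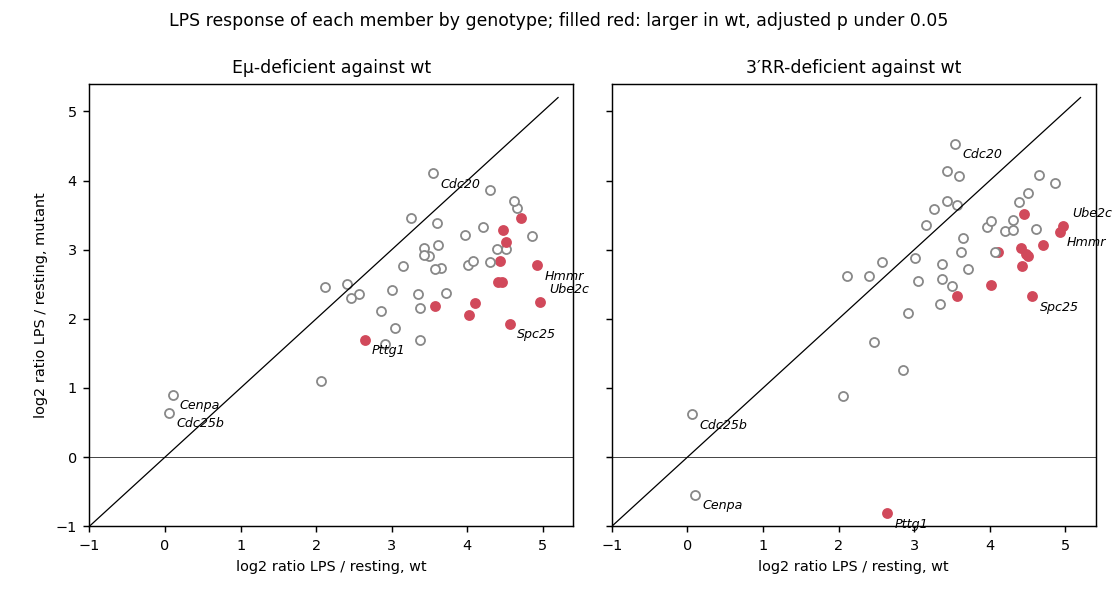
Log2 ratio of LPS-stimulated to resting cells in wt (horizontal) against the ratio in Eμ-deficient (left) and 3′RR-deficient cells (right), 1 point a member, with the line of equal response. Red points are the 13 members with a larger response in wt (edgeR, adjusted p under 0.05). Most points lie under the line, Cdc20 lies above it in both panels, and Pttg1 and Cenpa lie below 0 on the right.

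No member's response in a mutant was called apart from the other genotypes by the same kind of test. In each such test the error rests on the gap between the wt response and that of the other mutant. Where the wt response differs from both, that error grows, so 0 calls do not show that the mutants responded alike. For the LPS response of 3′RR-deficient cells against the other genotypes edgeR called 0 members larger and 0 smaller, as it did for 0% of all genes in either direction, and DESeq2 called 0. At an unadjusted p under 0.05, 0 were larger and 1 smaller, Pttg1 at -2.98 ± 0.71 (adjusted p = 0.421). Of all genes tested 234 were larger and 281 smaller at that threshold. For Eμ-deficient cells 0 members were called in edgeR or DESeq2, where edgeR called 0.103% of all genes larger and 0.00685% smaller. There the unadjusted count was 0 larger and 1 smaller, Ube2c at -1.89 ± 0.78, against 178 and 100 of all genes tested. The member medians were -0.21 for 3′RR-deficient and -0.59 for Eμ-deficient cells.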

How the data were processed

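The authors sequenced ribosome-depleted total RNA as paired reads and mapped them to mm10 with STAR 2.4.0a and Ensembl gene models. They then deposited raw counts per gene name from featureCounts (Subread 1.4.6-p1), counted by strand with multi-mapping reads included. Each library pooled 2 mice. Of 47055 deposited names 96 were added control RNAs and stayed out of library sizes and tests. Of these, 92 were spike-ins, at 4.75 to 7.1% of counts, and the other 4 made up 0.00037 to 0.0028%. Ribosomal and small RNA genes took 37.5 to 46.1% of gene counts.

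The 14599 genes that reached 10 counts in 2 or more libraries, all 49 members among them, were tested with edgeR 4.0.16 in R 4.3.3 (TMM, quasi-likelihood F test, genotype and state as terms, or an added interaction, with 2 or 1 residual degrees of freedom). P-values were adjusted by Benjamini-Hochberg over all genes tested, with a threshold of 0.05. Ratios of 1 library to 1 library were given 95% conditional binomial intervals and no test. P-values and intervals do not cover the spread between mice. Transcript length and GC content came from the longest GENCODE M21 transcript of a gene (44131 names matched, and 790 by an older symbol), and the GC trend was a lowess curve over all genes. Near copies were sought with BLAST+ 2.17.0. In simulated counts with 200 changed genes among 14599, the LPS test called 97.5% of them, with 3.47% of its calls on unchanged genes. The interaction test of the 3′RR-deficient response called 50%, with 6.54% of its calls on unchanged genes. The interaction test of the wt response was not tested in this way. Whether these percentages hold for the libraries used here was not tested.

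The members, gene lists and tests were chosen with earlier results of these data known. Named were main genes of each role, the highest and lowest LPS change of a role, the highest and lowest ratio to wt, and members called in a genotype or interaction test. Genes of other lists were named as highest, lowest or not called. One gene of the B-cell marker list is not reported here. Kif18b, Bub1b, Mau2 and the members named for their promoters were picked after their values were seen. Alternatives were total-count, DESeq2 and spike-in scaling, DESeq2 1.42.0 in place of edgeR, no filter or at least 50 counts in 3 libraries, removal of the GC or length trend, no genotype block, a fit to the genotypes compared, and leaving out each genotype's pair.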

Additional observations from a re-analysis of the deposited data

Results flagged for a closer look

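The LPS response was larger in wt than in the mutants for 13 members by the interaction test (edgeR, adjusted p under 0.05). The differences of log2 responses were 2.44 for Spc25, 2.18 for Ube2c, 2.14 for Pttg1, 1.9 for Hmmr, 1.75 for Nusap1, 1.63 for Kif11 and 1.62 for Nuf2. They were 1.5 for Ncapg, 1.5 for Prc1, 1.44 for Bub1, 1.43 for Birc5, 1.37 for Kif15 and 1.32 for Ect2. Each rests on the 1 wt pair of libraries.

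Of the 49 members 2 moved in opposite directions in different genotypes, a difference that was not tested for these pairs of genotypes. The log2 ratio of LPS-stimulated to resting cells of Pttg1 was 2.64 in wt, 1.69 in Eμ-deficient and -0.81 in 3′RR-deficient cells, the last resting on 49 reads after LPS and 199 before. That of Cenpa was 0.1, 0.9 and -0.55.

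The median ratio of the members to wt changed sign between states in both mutants, which was not tested. In 3′RR-deficient cells it was 0.671 in resting and -0.09 in LPS-stimulated cells, and in Eμ-deficient cells 0.748 and -0.258.

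The spike-in RNAs, which no comparison of genes used in the main scaling, had an SD of 1.267 of their log2 ratios between LPS-stimulated 3′RR-deficient and wt cells. Between LPS-stimulated and resting cells it was 0.784 in wt and 0.633 in 3′RR-deficient cells. Of the 4 comparisons with wt, the one of 3′RR-deficient cells after LPS is also the one with the closest relation of member ratios to GC content (Pearson's r = 0.73, across genes, which are not independent replicates).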

How the results depend on the processing

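The count of 46 members higher with LPS was 46 or 47 under every alternative run, and 46 to 47 when 1 genotype's pair was left out, with 0 lower throughout. The 13 members with a larger wt response became 2 under spike-in scaling (with 4 smaller), 2 in DESeq2, 1 with at least 50 counts in 3 libraries and 0 with the GC trend removed. They were 9 under total-count scaling, 14 with DESeq2 size factors and 15 without a filter. For the 3′RR-deficient response 1 member, in place of 0, was smaller with DESeq2 size factors, without a filter and with at least 50 counts in 3 libraries. Spike-in scaling turned the sign of the resting Eμ-deficient median to -0.066 and of the LPS 3′RR-deficient median to 0.459. The log2 LPS change of Cenpa turned to -0.07 under spike-in scaling and to -0.13 without the Eμ-deficient pair, and was -0.13 to 0.49 over the 3 fits that left out a pair. The cause of these changes was not tested. The LPS test pairs the 2 libraries of a genotype, and without that block it also called 46 members higher and 0 lower. The labels give no replicate numbers to pair libraries further. The interaction tests could not be fitted with a pair left out. The resting libraries held 11 to 2395 reads per member, and the shallowest library, LPS-stimulated 3′RR-deficient cells, limits the ratios of low genes such as Pttg1 (49 reads).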
